A study of Mus musculus with 6 samples.

Results

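The proteasome genes of the array were taken by name: every gene with an annotated symbol that starts with Psma, Psmb, Psmc, Psmd, Psme or Psmg and a digit, without Psmb8 and Psmb9. The rule took 47 of the 30142 genes tested. Of these, 43 encode proteasome subunits, activators or assembly factors. The other 4 share only the name pattern: Psmc3ip, a meiotic recombination cofactor, Psme3ip1, which encodes a protein that binds the activator subunit Psme3, and the pseudogenes Psmb5-ps and Psmb6-ps. Psmb5 and Psme2, which also encode proteasome proteins, lay on array features annotated with more than 1 gene, and were not analysed here.

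Adipose tissue macrophages were compared between diet-induced obese and lean mice. The obese group (HFD) was given a 60% high fat diet (Research Diets D12492), and the lean group (NCD) a normal chow diet (Envigo Teklad 8904), both for 16 weeks from 6 weeks of age. All mice were male C57BL/6J, aged 22 weeks, and carried no stated genetic change. Cells of the epididymal fat stromal fraction were labelled with an F4/80 antibody (clone BM8) and selected magnetically. Each diet had 3 pools, written HFD1 to HFD3 and NCD1 to NCD3. An HFD pool joined cells of 10 mice and an NCD pool cells of 20 mice, and variation from mouse to mouse was not measured. Each pool gave 1 Affymetrix array, and expression is given as the deposited log2 value. Levels on this scale are not comparable between genes, whose probes differ.

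The proteasome is the protease that degrades proteins tagged with ubiquitin. Its barrel-shaped core is built of outer rings of alpha subunits, which form the gate, and inner rings of beta subunits, some of which hold the catalytic sites. A regulatory particle caps the barrel: the base, with a ring of ATPases, unfolds the substrate and feeds it in, and the lid removes the ubiquitin. Interferons induce the alternative catalytic subunits Psmb8, Psmb9 and Psmb10, which take the places of Psmb5, Psmb6 and Psmb7 in the immunoproteasome. Macrophages use both forms, the second for peptides presented on MHC class I.

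A minority of the proteasome genes passed the test in the macrophage pools of HFD mice, and those that did were higher. Calls were made with limma across the whole table, at a Benjamini-Hochberg adjusted p of less than 0.05. Of the 47 genes, 6 rose (12.8%), 0 fell and 41 were not called. Over all genes tested, 4.96% were called higher and 2.87% lower. Among the 15747 genes with a mean above the array's background level, 8.73% were called higher. At an unadjusted p below 0.05, 19 of the 47 were higher and 0 were lower. In either direction, 7356 of all 30142 genes passed that level, and 5892 of the 15747 above background.

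The genes that rose were the core subunits Psmb6 and Psma1, the base subunits Psmd1 and Psmd2, the lid subunit Psmd8 and the assembly chaperone Psmd10. Their folds lay between 1.50 and 2.19, and Psmb6 alone passed 2-fold. The estimate was above 0 for 42 of the 47 genes (89.4%), against 53.1% of all genes. The median log2 change, HFD minus NCD, was 0.26 (quartiles 0.14 and 0.40), against 0.01 over all genes. The median standard error of the 47 changes was 0.12.

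In 28 genes (59.6%) every HFD array lay above every NCD array, against 17.6% of all genes and 26.6% of the genes above background. In 1 gene, Psme1, every HFD array lay below every NCD array, against 13.0% of all genes. In the other 18 the diets overlapped. HFD3 was the highest array for 31 of the 47 genes. NCD2 was the lowest for 21 and NCD1 for 16. The highest and lowest arrays were not counted over all genes, so these counts have no background.

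**Figure D1:**
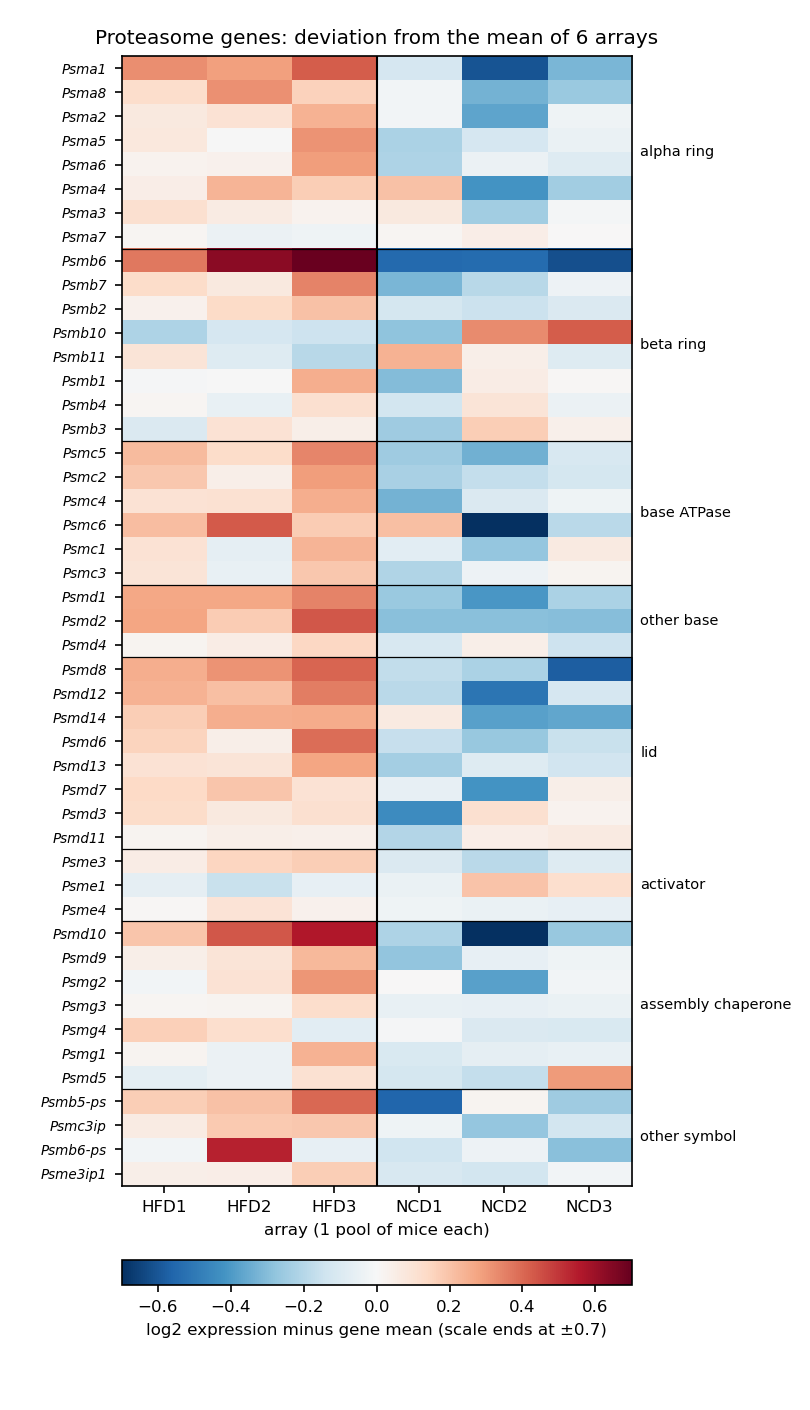
Log2 expression of the 47 genes on each array (columns, HFD left of NCD), as the deviation from the gene's mean over 6 arrays, with rows grouped by the role of the protein and ordered by p within each group. Red is above the mean and blue below. HFD columns are mostly red and NCD columns mostly blue, with Psmb10 and Psme1 the other way round.

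Psmb6 was called in each of the 6 fits without 1 array. The other 5 were called in 1 or 2 of these fits, always without NCD1 and for Psmd1 also without NCD3. Without HFD1, HFD2, HFD3 or NCD2, 1 of the 47 genes was called higher (2.13%), where 1.05% to 2.33% of all genes were. Without NCD1, 9 of the 47 genes were called higher (19.1%), where 7.96% of all genes were. In that fit 1 of the 47, Psmb10, was called lower, where 2314 of all 30142 genes were. The median change stayed between 0.21 and 0.29 in the 6 fits.

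**Figure D2:**
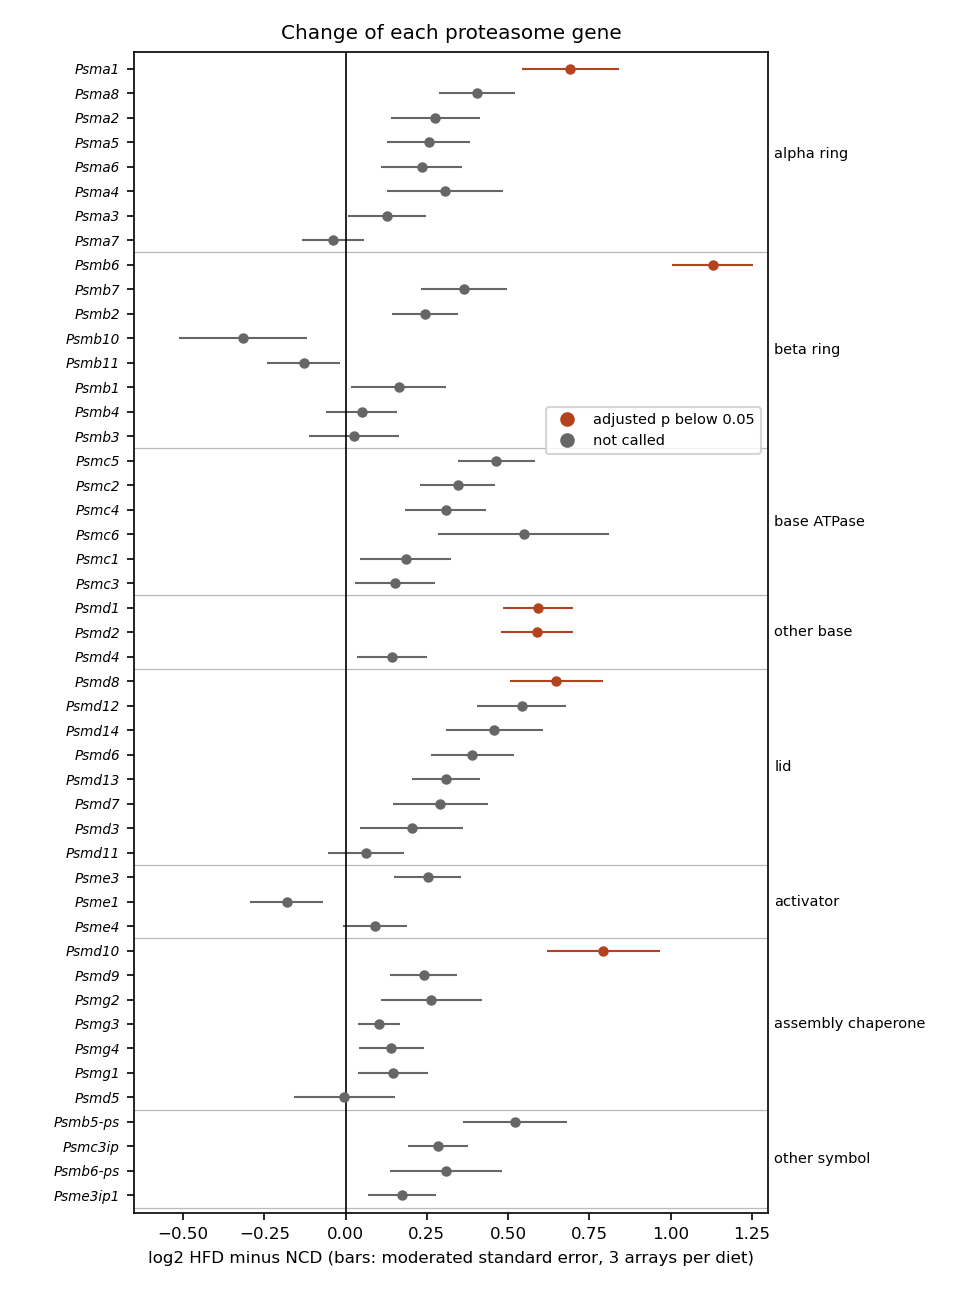
Log2 change (HFD minus NCD) of each of the 47 genes with its moderated standard error from limma, 3 arrays per diet, with called genes in red. The changes run from −0.32 for Psmb10 to 1.13 for Psmb6, and 42 of 47 points lie right of 0.

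Other cells in the pools moved with diet as well. In bulk samples such as these, fewer cells of a type and less RNA per cell cannot be told apart. The macrophage markers were strongly expressed on every array, with mean log2 levels of 15.10 to 15.28 in HFD and 14.36 to 15.10 in NCD pools (8 of 9 listed genes measured). Of these 8, Cd68 (1.20 ± 0.22, adjusted p = 0.0266) and Fcgr1 (1.43 ± 0.21, adjusted p = 0.0150) rose and Mertk (−0.49 ± 0.10, adjusted p = 0.0387) fell. The list was lowest on NCD3, at a mean deviation of −0.65 against 0.05 and 0.09 on NCD1 and NCD2. Endothelial markers had mean levels of 10.84 to 12.42 in HFD and 12.02 to 14.47 in NCD pools, with 0 of 13 called and a median change of −1.96. Of smooth muscle and pericyte markers 7 of 9 fell, with mean levels of 7.91 to 9.0 in HFD and 10.38 to 12.22 in NCD pools. All 6 mesothelial markers fell, although Msln, Krt19 and Wt1 averaged below background. Cell cycle genes, 11 of 11, rose, with mean levels of 10.49 to 11.04 in HFD and 8.56 to 9.30 in NCD pools. Fibroblast and progenitor markers rose in 4 of 6 genes, with mean levels of 9.78 to 10.36 in HFD and 8.77 to 9.16 in NCD pools. Dcn (−0.88 ± 0.29, adjusted p = 0.126) and Pi16 (−0.10 ± 0.18, adjusted p = 0.797) of that list had negative estimates and were not called. Mast cell markers rose in 4 of 5 genes, at 7.22 to 7.96 in HFD and 6.28 to 6.46 in NCD pools. Neutrophil, adipocyte, T cell and B cell markers had 0 calls, and 1 of 5 dendritic cell markers fell. Neutrophil markers were high on HFD3 alone among the HFD arrays, at a mean deviation of 2.13 against −1.38 and −1.41 on HFD1 and HFD2. B cell markers were high on NCD1, at a mean deviation of 1.39 against 0.10 and −0.52 on NCD2 and NCD3. With the endothelial marker level as a covariate, 0 of the 47 genes were called, where 0.766% of all genes were called higher. The median change of the 47 was then 0.19. The covariate leaves fewer residual degrees of freedom, so the lost calls alone do not show smaller changes. Apart from that fit, the part of these lists in the proteasome changes was not tested.

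**Figure D3:**
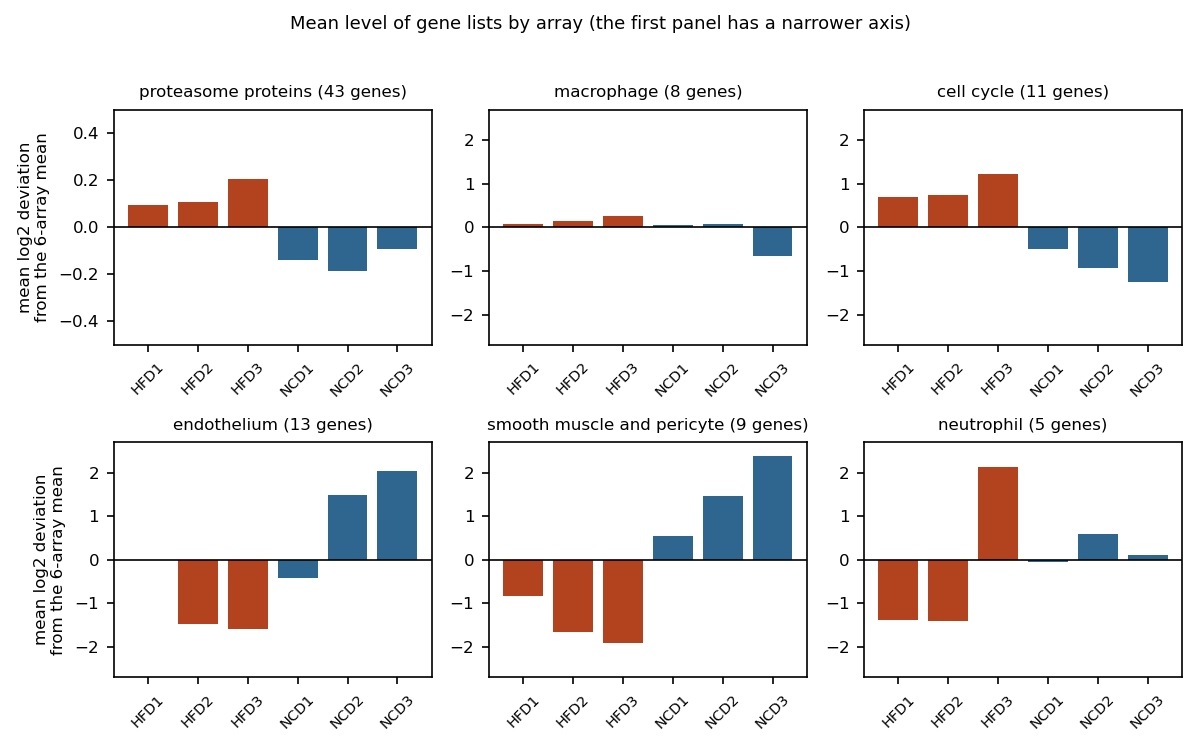
Mean log2 deviation of 6 gene lists from their 6-array mean, by array, with HFD bars in red left of NCD bars in blue. The 43 proteasome protein genes differ by less than 0.5 between any arrays, and the endothelial, smooth muscle, cell cycle and neutrophil lists by over 1 between some arrays.

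Promoter windows of RefSeq (GRCm38.p6, 250 bases before to 50 after the start, 1 per gene) were found for 35 of the 43 proteasome protein genes and 27025 genes in all. Both strands were searched for the antioxidant response element core that Nfe2l1 and Nfe2l2 bind (TGACNNNGC, or GCNNNGTCA on the other strand), the CCAAT box (CCAAT or ATTGG) and a pair of interferon regulatory factor half-sites (GAAANNGAA or TTCNNTTTC). No searched motif holds another. The element core was found in 5 of 35 windows (14.3%), against 12.5% of all windows, and of the 6 called genes it was in Psmb6 alone. The CCAAT box was in 13 of 35 (37.1%), against 37.9% of all windows. The half-site pair was in 6 of 35 (17.1%), against 8.57% of all windows, and in 0 of the 6 called genes. It was not found in the windows of Psmb8, Psmb9 or Psmb10 and was found in that of Psme1. A match describes the letters of the window and does not show a bound site.

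The 250 bases before the start are shown for the 3 called genes whose windows held a match to the element core or the CCAAT box, with the matches in capitals. They are given 5′ to 3′ on the strand of the gene, and lie at chr11:70525107-70525356 (plus strand), chr7:114276117-114276366 (minus strand) and chrX:140956712-140956961 (minus strand) of GRCm38.p6. The element core of Psmb6 ends at the base before the start.
Psmb6: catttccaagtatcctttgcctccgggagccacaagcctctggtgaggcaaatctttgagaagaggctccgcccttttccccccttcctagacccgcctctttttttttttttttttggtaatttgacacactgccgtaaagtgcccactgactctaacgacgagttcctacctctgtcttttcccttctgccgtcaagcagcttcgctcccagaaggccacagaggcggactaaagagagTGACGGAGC
Psma1: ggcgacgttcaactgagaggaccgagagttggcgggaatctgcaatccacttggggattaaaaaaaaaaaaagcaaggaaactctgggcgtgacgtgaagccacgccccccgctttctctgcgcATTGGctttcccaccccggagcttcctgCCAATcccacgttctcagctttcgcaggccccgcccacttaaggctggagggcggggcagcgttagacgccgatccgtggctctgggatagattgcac
Psmd10: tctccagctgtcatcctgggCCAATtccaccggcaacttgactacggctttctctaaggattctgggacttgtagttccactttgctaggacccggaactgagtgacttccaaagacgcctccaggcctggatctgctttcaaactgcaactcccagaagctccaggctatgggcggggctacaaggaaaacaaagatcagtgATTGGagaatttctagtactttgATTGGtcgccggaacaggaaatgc

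The beta ring held both the largest rise and the largest negative estimate of the 47 genes. Of its 8 genes taken by the rule, Psmb6 rose and 7 were not called, and the median change was 0.11. The share called higher was 12.5%, against 8.73% of the genes above background. Psmb6 (Entrez 19175) encodes the subunit that carries the caspase-like activity of the standard core, and is the called gene with the response element core in its promoter window. It was at 11.25, 11.51 and 11.57 on HFD1 to HFD3, and at 10.34, 10.34 and 10.26 on NCD1 to NCD3. The NCD arrays were within 0.1 of each other, and the groups were far apart. The change was 1.13 ± 0.12 (SE), a 2.19-fold rise (adjusted p = 0.00734). It ran from 1.07 to 1.23 without each array in turn. Its adjusted p lay between 0.00439 and 0.0668 over 16 alternatives, and was above 0.05 with the replicate number as a block (adjusted p = 0.0668) and with the endothelial covariate (change 0.97, adjusted p = 0.0536). Its pseudogene Psmb6-ps was below background on average (0.31 ± 0.17, adjusted p = 0.335), and whether its probes also match the parent transcript was not tested.

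Psmb7 encodes the trypsin-like catalytic subunit of the standard core. It was at 12.35, 12.28 and 12.57 on HFD arrays and at 11.90, 12.02 and 12.18 on NCD arrays. The groups did not overlap, but the change of 0.36 ± 0.13 was not called (adjusted p = 0.155). Psmb10, its inducible counterpart, was at 10.10, 10.20 and 10.17 on HFD arrays and at 10.03, 10.64 and 10.74 on NCD arrays. NCD1 lay below all HFD arrays and the other NCD arrays above them. Its change was −0.32 ± 0.20 (adjusted p = 0.393), and without NCD1 it was −0.54 and called (adjusted p = 0.0213, range over 16 alternatives 0.0213 to 0.949). With the endothelial covariate the estimate was 0.06. The remaining beta genes had changes from −0.13 to 0.25, among them Psmb2 (0.25 ± 0.10, adjusted p = 0.199), Psmb1, Psmb3 and Psmb4. Psmb11, the beta subunit of the thymus, was below background on every array.

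The other inducible subunits, which the rule leaves out, also had negative estimates. Psmb9 was at 7.54, 7.39 and 7.54 on HFD arrays and at 7.64, 8.05 and 8.19 on NCD arrays (−0.47 ± 0.16, adjusted p = 0.124). Psmb8 was at 8.70, 8.63 and 8.55 on HFD arrays and at 8.89, 9.11 and 9.20 on NCD arrays (−0.44 ± 0.12, adjusted p = 0.0756). In both, all HFD arrays lay below all NCD arrays, yet neither was called in the main fit. Each was called without NCD1 and with array weights, and Psmb8 also when dim genes were left out. The lowest adjusted p over 16 alternatives was 0.0223 for Psmb8 and 0.0146 for Psmb9. Psmb8 stayed uncalled in 12 of the 16 and Psmb9 in 14. The estimates with the endothelial covariate were −0.21 for Psmb8 and −0.13 for Psmb9.

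Psmb9 and Psmb10 were then each set against the standard subunit they replace within each array, 2 pairs chosen after their values were seen. Psmb8 was not, since its counterpart Psmb5 was not analysed here. The log2 difference Psmb9 minus Psmb6, centred on its mean over 6 arrays, was −0.55, −0.97 and −0.88 on HFD arrays and 0.46, 0.86 and 1.08 on NCD arrays. The difference of the diet means was −1.60. For Psmb10 minus Psmb7 the centred values were −0.34, −0.18 and −0.49 on HFD arrays and 0.04, 0.52 and 0.46 on NCD arrays, a difference of −0.68. The groups did not overlap in either pair. Since the pairs were chosen for these values, the differences are a description, and no p-value is given for them.

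**Figure D4:**
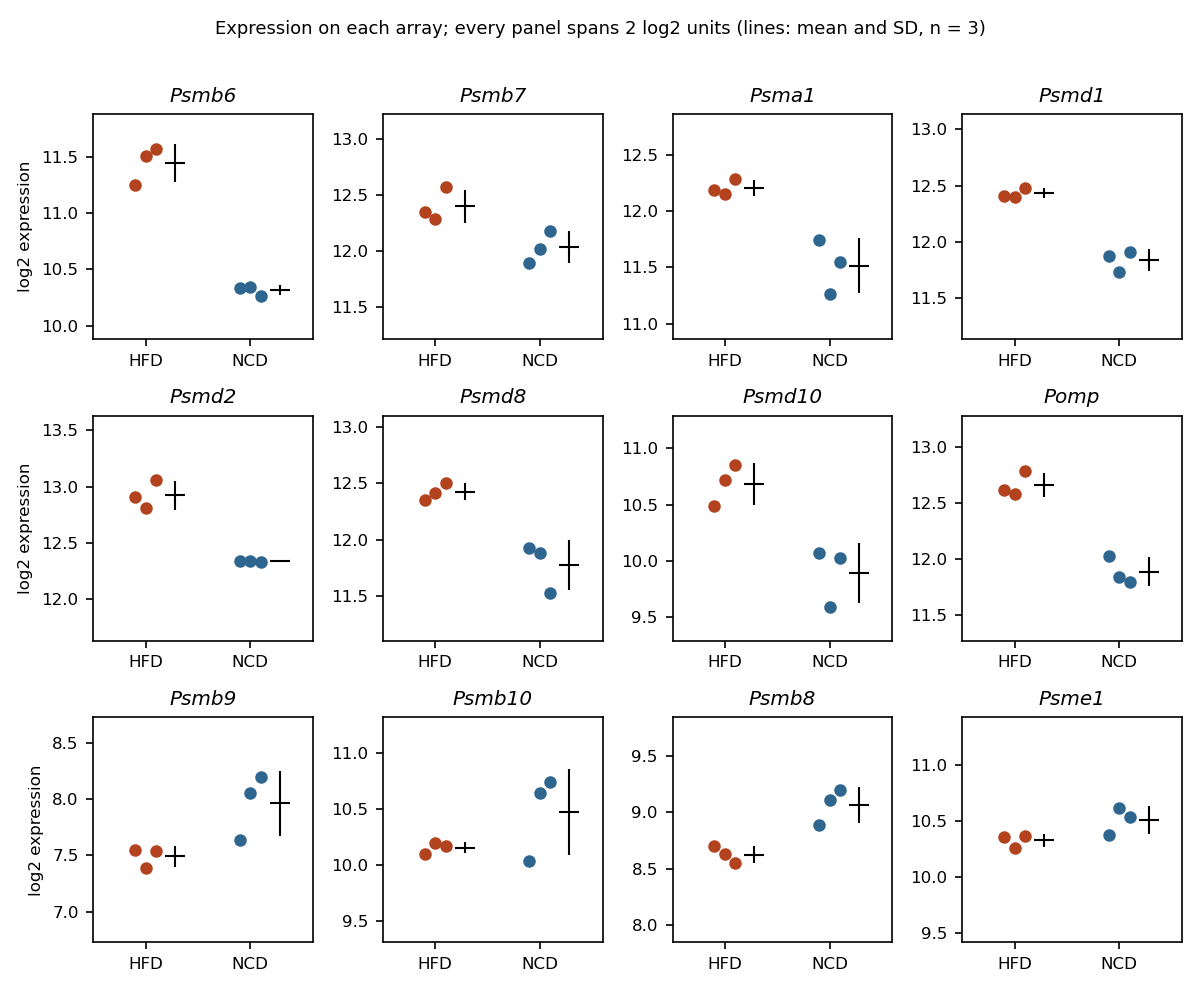
Log2 expression on each array for 8 genes with positive changes (upper 2 rows) and for the interferon-inducible genes Psmb9, Psmb10, Psmb8 and Psme1 (bottom row), with mean and SD beside the points (n = 3). HFD points are left of NCD points, and each panel spans 2 log2 units. HFD lies above NCD in all panels of the upper rows and below it in the bottom row, except that NCD1 lies under the HFD arrays in Psmb10.

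Among the 8 alpha ring genes Psma1 rose (12.5%), 7 were not called, and 7 of 8 estimates were positive (median 0.27). Of the genes above background, 8.73% were called higher and 52.4% had positive estimates. Psma1 (Entrez 26440), a structural subunit of the outer ring whose printed upstream bases hold 2 CCAAT box matches, was at 12.19, 12.15 and 12.29 on HFD arrays and at 11.74, 11.26 and 11.54 on NCD arrays. The lowest HFD value stood above the highest NCD value by less than the spread of the NCD arrays. The change was 0.69 ± 0.15 (1.62-fold, adjusted p = 0.0416), and was called in 1 of 6 fits without 1 array. With the endothelial covariate it was 0.50 and not called. Psma8, the alpha subunit of the testis, was at 7.56, 7.76 and 7.60 on HFD arrays and at 7.42, 7.11 and 7.18 on NCD arrays (0.40 ± 0.12, adjusted p = 0.0880). Psma7, its close relative in somatic cells, had nearly equal values in both diets (−0.04 ± 0.10, adjusted p = 0.854). Psma2, Psma3, Psma4, Psma5 and Psma6 had changes of 0.13 to 0.31, and HFD lay above NCD on all arrays in Psma2, Psma5 and Psma6. The estimate for Psma4, 0.31, was −0.07 with the endothelial covariate.

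The regulatory particle genes taken by the rule had positive estimates throughout: 17 of 17 were above 0, with a median of 0.34, and 3 of them rose (17.6%). Of the genes above background, 52.4% had positive estimates and 8.73% were called higher. Psmd1 and Psmd2 are the large scaffold proteins of the base, the second a docking site for ubiquitin shuttle factors. Psmd1 (Entrez 70247) was at 12.41, 12.40 and 12.48 on HFD arrays and at 11.88, 11.73 and 11.91 on NCD arrays. Psmd2 (Entrez 21762) was at 12.90, 12.81 and 13.06 on HFD arrays and at 12.34, 12.34 and 12.33 on NCD arrays. Both had a clear gap between diets, and their changes were alike, at 0.59 ± 0.11 for Psmd1 (1.51-fold, adjusted p = 0.0256) and 0.59 ± 0.11 for Psmd2 (1.50-fold, adjusted p = 0.0291). With the endothelial covariate the changes were 0.56 and 0.57, close to the uncorrected values, but not called. The ubiquitin receptor Psmd4 was at 0.14 ± 0.11 (adjusted p = 0.484).

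Of the 6 base ATPases, which pull the substrate into the core, 0 were called and 6 had positive estimates (median 0.33). Positive estimates were found for 52.4% of the genes above background, and 8.73% were called higher. An unadjusted p below 0.05 was found for 3 of the 6, and for 5892 of the 15747 genes above background. Psmc5 was at 10.76, 10.67 and 10.88 on HFD arrays and at 10.29, 10.21 and 10.43 on NCD arrays (0.46 ± 0.12, adjusted p = 0.0652). Psmc2 was at 11.69, 11.54 and 11.80 on HFD arrays and at 11.28, 11.34 and 11.38 on NCD arrays (0.34 ± 0.11, adjusted p = 0.125). Both had no overlap between diets, and Psmc5 was called under 5 alternatives, such as the fit without a trend. Psmc6 had the largest estimate of the ATPases and the largest standard error of the 47 genes (0.55 ± 0.26, adjusted p = 0.265), with NCD2 at 12.65 and the other NCD arrays at 13.70 and 13.31. Psmc1, Psmc3 and Psmc4 were at 0.18, 0.15 and 0.31.

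Of the 8 lid genes taken by the rule, Psmd8 rose and 7 were not called, and the median change was 0.35. The called share was 12.5%, against 8.73% called higher among the genes above background. Psmd8 (Entrez 57296), the subunit that joins the lid last in yeast, was at 12.36, 12.41 and 12.51 on HFD arrays and at 11.93, 11.88 and 11.52 on NCD arrays. Its change was 0.65 ± 0.14 (1.57-fold, adjusted p = 0.0434) and ran from 0.52 to 0.72 without each array in turn. With the endothelial covariate it was 0.42 and not called (adjusted p = 0.369). The scaffold subunit Psmd12 was at 13.03, 12.99 and 13.14 on HFD arrays and at 12.59, 12.27 and 12.67 on NCD arrays (0.54 ± 0.14, adjusted p = 0.0651). Psmd14, the enzyme that cuts ubiquitin chains off the substrate, was at 0.46 ± 0.15 (adjusted p = 0.119). Both had HFD above NCD on every array, as did Psmd6 (0.39), Psmd7 (0.29) and Psmd13 (0.31). Psmd3 (0.20) and Psmd11 (0.06) overlapped between diets.

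Of the 3 activators measured, which open the core in place of the base and lid, 0 were called. Psme3, the nuclear activator, was at 12.61, 12.71 and 12.73 on HFD arrays and at 12.45, 12.37 and 12.47 on NCD arrays (0.25 ± 0.10, adjusted p = 0.194). Psme1, a subunit of the interferon-inducible activator, was at 10.36, 10.26 and 10.37 on HFD arrays and at 10.38, 10.62 and 10.54 on NCD arrays (−0.18 ± 0.11, adjusted p = 0.393). HFD1 and HFD3 were within 0.02 of NCD1, so the gap between diets in Psme1 was small. Psme4, the large single-chain activator, was at 0.09 ± 0.10.

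Among 7 assembly chaperones, Psmd10 rose (14.3%) and 6 were not called (median 0.15). Among the genes above background, 8.73% were called higher. Psmd10 (Entrez 53380), also known as gankyrin, binds the ATPase Psmc4 while the base is put together. It was at 10.48, 10.72 and 10.85 on HFD arrays and at 10.07, 9.58 and 10.02 on NCD arrays. The change of 0.79 ± 0.17 (1.73-fold, adjusted p = 0.0433) was the second largest of the 47, with wide spread in both diets. It was 0.55 with the endothelial covariate. The base chaperone Psmd9 was at 6.84, 6.89 and 7.03 on HFD arrays and at 6.53, 6.74 and 6.77 on NCD arrays (0.24 ± 0.10, adjusted p = 0.214). Psmd5, another base chaperone, had an estimate of −0.003 ± 0.16. The core chaperones Psmg1, Psmg2, Psmg3 and Psmg4 were at 0.15, 0.26, 0.10 and 0.14, with Psmg3 below background.

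The 4 genes that share only the name pattern were not called and had estimates of 0.17 to 0.52. Psmb5-ps was at 7.71, 7.74 and 7.94 on HFD arrays and at 6.98, 7.56 and 7.29 on NCD arrays (0.52 ± 0.16, adjusted p = 0.105), and its parent gene was not analysed here. Psmc3ip was at 6.52, 6.64 and 6.65 on HFD arrays and at 6.43, 6.19 and 6.33 on NCD arrays (0.29 ± 0.09, adjusted p = 0.119). Without these 4, the median of the 43 proteasome protein genes was 0.25.

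A list of 35 further genes of the ubiquitin-proteasome pathway was read from the same fit, and 25 were measured. Of these, 4 rose (16.0%), 0 fell and 21 were not called, with a median of 0.10. All 25 averaged above background, and of the genes above background 8.73% were called higher and 4.585% lower. At an unadjusted p below 0.05, 9 were higher and 4 lower, where 5892 of the 15747 genes above background passed in either direction. Pomp, a chaperone needed for the core to mature, was at 12.62, 12.58 and 12.78 on HFD arrays and at 12.03, 11.84 and 11.80 on NCD arrays. It rose by 0.77 ± 0.12 (1.70-fold, adjusted p = 0.0174), but was called in only 2 of 6 fits without 1 array. Usp14, a ubiquitin-cleaving enzyme bound to the base, was at 11.38, 11.49 and 11.55 on HFD arrays and at 10.82, 10.45 and 10.54 on NCD arrays (0.87 ± 0.14, 1.83-fold, adjusted p = 0.0167), and was also called in only 2 of these fits. With the endothelial covariate the change was 0.60 for Pomp and 0.62 for Usp14, and neither was called. Both genes had HFD above NCD by more than the spread within either diet.

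Zfand2a, an arsenite-inducible protein that associates with the regulatory particle, had the largest change of the list. It was at 12.82, 12.91 and 13.01 on HFD arrays and at 11.74, 11.73 and 11.60 on NCD arrays (1.22 ± 0.11, 2.33-fold, adjusted p = 0.00452). The call held in all 6 fits without 1 array. Uba6, an alternative ubiquitin-activating enzyme, was at 12.18, 12.32 and 12.41 on HFD arrays and at 11.79, 11.07 and 11.27 on NCD arrays (0.93 ± 0.20, adjusted p = 0.0403), and was called in 1 of these fits. With the endothelial covariate the change of Uba6 was 0.50 and not called (adjusted p = 0.343, range over 16 alternatives 0.00653 to 0.343).

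The transcription factor gene Nfe2l1, whose protein raises proteasome genes when degradation is blocked, was at 12.13, 11.84 and 11.89 on HFD arrays and at 11.78, 12.52 and 13.00 on NCD arrays. NCD1 lay below the HFD arrays and NCD3 well above them, so the groups overlapped (−0.48 ± 0.30, adjusted p = 0.392). The estimate for Nfe2l1 was −0.81 and called without NCD1 (adjusted p = 0.0342, range over 16 alternatives 0.0342 to 0.689), −0.20 without NCD3 and 0.29 with the endothelial covariate. Nfe2l2, its oxidative stress relative, was at 0.36 ± 0.12 (adjusted p = 0.122). The segregase Vcp, which extracts ubiquitinated proteins for degradation, was at 0.35 ± 0.11 (adjusted p = 0.109).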

How the data were processed

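Pooled macrophages from 3 HFD and 3 NCD pools were measured on 1 array each. The deposited values are log2 expression, with a row for each transcript cluster. RMA is named in the submitters' processing notes, beside Transcriptome Analysis Console 3.1.0.5 and Expression Console 1.4.1.46 of Affymetrix. Options, centring and genome build are not given in the sources used here. That values are log2 rests on those notes and on their range. Column medians were 5.95, 5.95 and 5.96 on HFD1 to HFD3 and 6.03, 6.02 and 5.95 on NCD1 to NCD3. The number of arrays limits the precision.

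Control probe sets (6732) were left out. Of 65956 clusters, 30604 had 1 gene symbol, 2146 several and 33206 none. The annotation is old, and 827 symbols were updated through Entrez identifiers. For each gene the cluster with the highest mean was kept (30142 genes). The background level, 6.23, was the 95th percentile of 23 antigenomic probe sets averaged over arrays. Diets were compared with limma 3.58.1 (lmFit, eBayes with trend) in R 4.3.3 with version 1.17.8 of data.table, with Benjamini-Hochberg adjustment over all genes. The script was tested on simulated data. The sample labels give a replicate number and do not say whether same-numbered pools were handled together. The 16 alternatives changed the trend, scaling, weights, filter, cluster choice, block, covariate or arrays used.

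The members and lists were chosen with earlier results of these data known. Values per array are given for each called gene, the 2 genes with the smallest p of each role, the catalytic subunits, and called or key genes of the pathway list. Of that list's 35 genes, 10 were not analysed here.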

Additional observations from a re-analysis of the deposited data

How the results depend on the processing

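The median change of the 47 proteasome genes stayed positive under all 16 alternatives, from 0.19 to 0.35. It was 0.35 with median centring, which also moved the median of all genes to 0.10, and 0.19 with the endothelial covariate. The number called higher was 10 with median centring and 10 with array weights, 0 with the replicate block and 0 with endothelial markers as covariate. Leaving out each array in turn gave 1 to 9 (6 with all arrays). The number called lower was 0, except 1 without NCD1, so 0 to 1 without each array. Of all genes, 8.54% were called higher with median centring, 7.78% with array weights, 0.299% with the block and 0.766% with the covariate. Without each array this share ran from 1.05% to 7.96%, and it was 4.96% with all arrays. Without NCD1, 2314 of the 30142 genes were called lower. All genes called numbered 2359, against 4282 with array weights, 144 with the replicate block, 519 with the covariate and 442 to 4713 without each array. Of the pathway list, the number higher was 4, against 0 with the block, 1 with the covariate and 1 to 5 without each array. The number lower was 0, against 1 without the trend, 2 with array weights, 2 in either fit without dim genes and 0 to 3 without each array. The 16 alternatives gave 746 values for single proteasome genes, 15 of which turned the sign of an uncalled estimate, and 0 turned a called one. The deviations of same-numbered HFD and NCD arrays correlated at r = −0.46, −0.12 and −0.15 across genes, none of them above 0.1. The main fit did not take the numbers as pairs. These correlations cannot decide whether same-numbered pools were handled together, since differences in marker levels between arrays of a diet enter the same deviations. Leaving out 1 array, or adding the block or the covariate, leaves fewer residual degrees of freedom. A call lost that way is not evidence of a smaller effect. With the block the median change of the 47 genes stayed at 0.26. The covariate was not independent of diet, as the endothelial markers had a median change of −1.96. With 3 arrays per diet, the median standard error of the 47 changes was 0.12. The smallest called change was 0.59 (Psmd2). Changes of up to 0.55 (Psmc6) were not told from 0 at the threshold used.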
